A study of Mus musculus with 8 samples.

Results

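Pdgfra and Pdgfrb, the genes of both receptors for platelet-derived growth factors, were read for H3K27me3 in mouse myoblasts, and their rows were taken by gene name from every library. They are 2 of the 273 genes in the tables, each with 1 row in each of 4 libraries, and both stand under the authors' heading UP, with 220 of the 273 genes. The sources used here do not say how the authors chose those genes, and the heading supports no direction of H3K27me3. The cells were primary myoblasts from hindlimb muscle, grown with horse serum and bFGF. Psat1cKO cells had the genotype Pax7 CRE+/-; Psat1fl/fl, and control cells had Pax7+/+; Psat1fl/fl, so both groups carried floxed Psat1 alleles and only the Psat1cKO cells carried Cre, at 1 of their Pax7 alleles. The mark was read by CUT&RUN, which tethers a nuclease to an antibody on chromatin and sequences the fragments it frees, in 2 libraries per genotype; the 4 IgG libraries of the series were not analysed here, and the labels used here state no age. Psat1 is not among the 273 genes, so its deletion could not be checked in these values, and myoblast identity could not be checked because the assay does not read RNA.

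PDGF receptors are receptor tyrosine kinases: a dimeric ligand brings a pair of receptors together, their kinase domains phosphorylate each other, and the phosphorylated tails recruit signal transducers that drive growth and migration of mesenchymal cells. The receptor encoded by Pdgfra marks fibro-adipogenic progenitors of skeletal muscle, and that encoded by Pdgfrb marks pericytes and other perivascular cells; neither is a marker of myoblasts. H3K27me3 is placed by Polycomb complexes over genes that a cell keeps silent, often genes of other lineages. Signal was given as coverage along a profile of points that runs from an upstream flank over the gene, stretched to a fixed number of points, to a downstream flank. Here points 1 to 20 are called the upstream flank, points 11 to 31 the start window, points 21 to 81 the gene body and the points from 82 on the downstream flank. In bulk cells, less of the mark in each cell and fewer marked cells cannot be told apart.

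Pdgfra (NM_011058, plus strand) lies on chromosome 5, 75151322 to 75198206, in the mm10 assembly (GRCm38.p6), with Gsx2 as the nearest upstream protein-coding gene, 73428 bases away, and Kit, another receptor tyrosine kinase of the same class, 376780 bases downstream. Since the mark of Pdgfra was strong on both sides of its start, the promoter of Pdgfra in the RefSeq table (GRCm38.p6, chr5:75152001-75152300, plus strand) is shown 5′ to 3′, with each CG dinucleotide in capitals.
Pdgfra promoter: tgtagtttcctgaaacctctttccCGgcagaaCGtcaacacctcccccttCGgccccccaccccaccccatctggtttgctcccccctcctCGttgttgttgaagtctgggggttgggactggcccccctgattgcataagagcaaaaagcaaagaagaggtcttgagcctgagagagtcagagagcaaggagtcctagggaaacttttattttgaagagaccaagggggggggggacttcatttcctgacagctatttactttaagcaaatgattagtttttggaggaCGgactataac
The start in this entry lies 929 bases inside the annotated span of the gene, so it is one of several starts and need not be that of the profile. The motif searched was CG, which reads the same on both strands. This window held 5, against a median of 11 in the 257 promoters of the 192 of 273 table genes matched by gene ID and 7 in all 32851 promoters; 99.2% and 94.6% of them held at least 1. Of the 257, 20.2% had fewer CG than Pdgfra. Across the 192 genes, taking for each gene the promoter with the most CG, Spearman's rho between that count and start-window signal was 0.33, a description across genes that share the same libraries.

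Pdgfrb (NM_001146268, plus strand) lies on chromosome 18, 61045127 to 61085067, in the same assembly, with the predicted gene Gm52351 ending 413 bases upstream, so that its upstream flank may cover part of that gene, and Csf1r, the receptor for colony stimulating factor 1, starting 20504 bases downstream. None of these 4 neighbours of the receptor genes is among the 273 genes.

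The signal came in steps of 0.0907 to 0.115 on the authors' scale, taken here as the coverage of 1 read. On that reading the mean depth over the profile of Pdgfra was 3.47 reads at the lowest, in Psat1cKO replicate 2, and 4.88 reads at the highest, in control replicate 1. For Pdgfrb it was 1.68 reads in Psat1cKO replicate 2 and 2.57 reads in control replicate 1, again the lowest and the highest. The upstream flank of Pdgfra was 12.2 to 15.6 reads deep and its body 1.57 to 2.63 reads deep. Were the scale per 1000000 reads, the libraries would hold 9426230 and 8928620 reads in Psat1cKO and 11027900 and 8697860 in control, to 6 digits. No interval was computed from these depths, because neighbouring points may share reads where they lie close together.

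Pdgfra carried one of the strongest upstream H3K27me3 domains in the tables. Mean signal over its upstream flank was 1.39 and 1.36 in the Psat1cKO libraries and 1.42 and 1.54 in the control libraries, ranking from 2 to 4 among 273 genes. These levels were 18.6 to 24.4 times that of the median gene of the same library. Over the gene body, mean signal was 0.231 and 0.176 in Psat1cKO and 0.238 and 0.228 in control, ranks 40 to 59. The upstream level was thus 5.95 to 7.74 times the gene-body level, and 63.4 to 69.5% of the signal summed over profile points lay upstream. Averaged over the 4 libraries, this upstream share was 66.1%, rank 10 of the 171 genes with enough signal in every library, whose median was 27.97%. Shares of signal given here count each point equally. If the profile covers the annotated span evenly, a body point of Pdgfra stands for about 781 bases. The flank width in bases is not known, so these are not shares of signal along the DNA. Between genes, a body point stands for unlike lengths, which also limits the ranks of such shares.

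**Figure D1:**
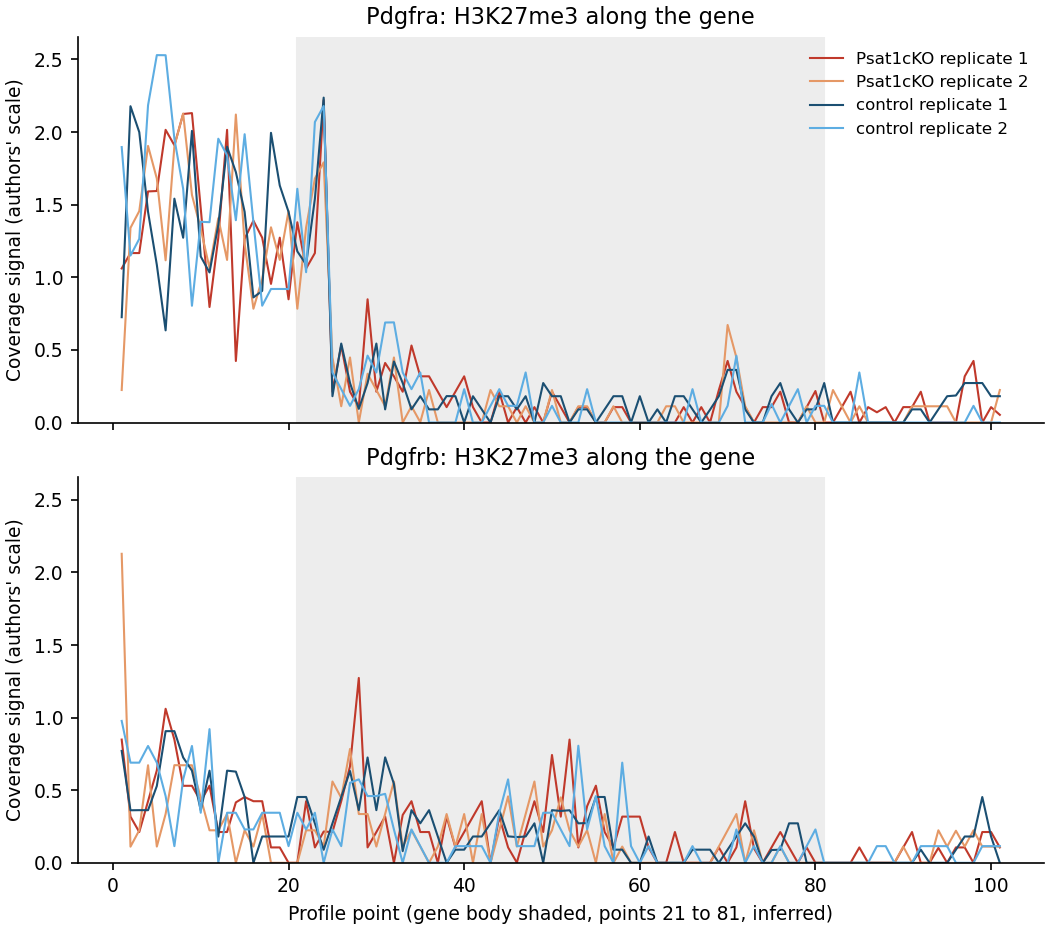
H3K27me3 coverage signal (authors' scale) at each profile point of Pdgfra (top) and Pdgfrb (bottom), 1 line per library; the inferred gene body is shaded. In Pdgfra signal drops sharply between points 24 and 25 in all 4 libraries, and in Pdgfrb it is lower and spread further along the gene.

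The domain of Pdgfra ended at a sharp edge just inside the gene. At point 24 signal was 2.221 and 1.79 in the Psat1cKO libraries and 2.24 and 2.18 in the control libraries. At point 25 it was 0.212 and 0.448 in Psat1cKO and 0.181 and 0.345 in control. The edge stood between the same neighbouring points in every library of either genotype. If the profile covers the annotated span evenly, these points lie about 2.3 and 3.1 kb downstream of its start. Averaged over 5 points, signal at points 21 to 25 exceeded that at points 26 to 30 by 3.16 and 5.40 times in Psat1cKO and by 3.61 and 5.24 times in control. The difference between these neighbouring bins, 0.971 in the mean of the 4 libraries, ranked 3 among the steepest declines of each of the 273 genes, with a median of 0.116. A difference in signal can be large only where signal is high, and the ratio between bins was not ranked. A bin in the body also spans more bases in a longer gene, so the rank does not compare steepness per base. Beyond point 40, bins of 10 points averaged 0.0472 to 0.0991 over the libraries, about 1 read deep or less.

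Pdgfrb was marked at a lower level and along more of its length. Its upstream flank had 0.436 and 0.375 in the Psat1cKO libraries and 0.459 and 0.469 in the control libraries, 5.85 to 7.79 times the median gene, at ranks 35 to 48. Its gene body had 0.223 and 0.167 in Psat1cKO and 0.217 and 0.173 in control, at ranks 41 to 64. The upstream share of its signal, again over profile points, averaged 39.99%, rank 44 of 171 genes. The body share was 54.4%, close to the median gene's 54.6%. Signal was not even along the body: in the mean of the libraries it was 0.238 at points 21 to 25, 0.470 at points 26 to 30, 0.135 at points 36 to 40, 0.338 at points 51 to 55 and 0.0307 at points 61 to 65. The local maximum at points 26 to 30 was seen in every library, with 0.536 and 0.403 in Psat1cKO and 0.507 and 0.432 in control, above the bins on either side. The elevation at points 51 to 55 was 0.439 and 0.202 in Psat1cKO and 0.344 and 0.368 in control, and in Psat1cKO replicate 2 it did not exceed the bin before it (0.269).

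Within a library, Pdgfra exceeded Pdgfrb on the upstream side and not by much in the body. The ratio of their mean signal, Pdgfra over Pdgfrb, was 3.18 and 3.64 in Psat1cKO and 3.09 and 3.29 in control over the upstream flank. Over the start window it was 2.90 and 4.04 in Psat1cKO and 2.77 and 3.26 in control. Over the gene body it was 1.04 and 1.05 in Psat1cKO and 1.10 and 1.32 in control. Pdgfra was the higher gene in 4 of 4 libraries in each of these windows. In the downstream flank the order differed between libraries, with ratios of 1.52 and 0.919 in Psat1cKO and 1.54 and 0.445 in control. The midpoint of the summed signal, with each point counted equally, was reached by point 14 to 16 in Pdgfra and by point 25 to 28 in Pdgfrb. In the median of the 171 genes it was at point 37. Points stand for unlike numbers of bases, so these are not midpoints along the DNA. The averaged profiles of the receptors had a Pearson's r of 0.52 along their points, a description of shape across points of the same libraries.

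**Figure D2:**
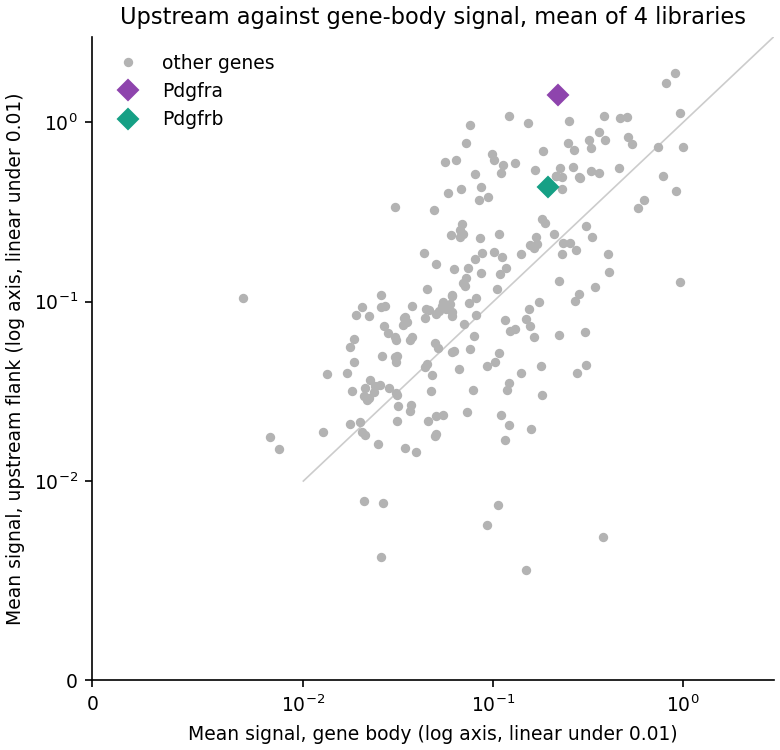
Mean H3K27me3 signal of the upstream flank (vertical) against that of the gene body (horizontal) for the 218 genes with enough signal to test, each the mean of 4 libraries, on log axes that are linear under 0.01; the line marks equal values. Pdgfra lies near the top at a body level close to that of Pdgfrb.

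The shape of both profiles recurred in all libraries. Over 20 bins of 5 points, Pearson's r between 2 libraries was 0.948 to 0.981 for Pdgfra and 0.813 to 0.919 for Pdgfrb, within and between genotypes alike. Neighbouring bins may share reads and are not independent. The level of Pdgfra was also close between replicates: over the whole profile replicate 2 was 0.897 times replicate 1 in Psat1cKO and 1.01 times in control. Of the 218 genes tested, 25 had a smaller log2 difference between the Psat1cKO libraries than Pdgfra, and 2 had a smaller one between the control libraries. For Pdgfrb the same ratios were 0.808 in Psat1cKO and 0.890 in control.

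The comparison of genotypes asked whether loss of Psat1, an enzyme of serine synthesis whose reaction also yields alpha-ketoglutarate, goes with another level of the mark at these genes. Over the whole profile, mean signal of Pdgfra was 0.433 and 0.389 in the Psat1cKO libraries and 0.443 and 0.447 in the control libraries, a mean of 0.411 ± 0.032 in Psat1cKO and 0.445 ± 0.0033 in control (SD, n = 2 each). Both Psat1cKO libraries lay below both control libraries, as for 10.6% of all tested genes. The log2 change was -0.11 ± 0.26 (SE), with a 95% interval of the Psat1cKO to control ratio of 0.615 to 1.39, and did not pass limma (adjusted p = 0.999). This fit did not use the replicate number, so differences between replicates count as error in it. With a replicate block the SE was 0.0970, and Pdgfra did not pass either (adjusted p = 0.776, limma). Psat1cKO to control ratios within a replicate were 0.979 and 0.869, beside a median of 1.04 and 0.903 over the 218 genes. Pdgfra was thus among the 72 genes (33% of those tested) lower in Psat1cKO in both replicates.

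Pdgfrb had 0.233 and 0.189 in the Psat1cKO libraries and 0.233 and 0.208 in the control libraries, a mean of 0.211 ± 0.032 in Psat1cKO and 0.221 ± 0.018 in control (SD, n = 2 each). The groups overlapped, and the ratio within a replicate was 1.00 and 0.908. Its log2 change was -0.07 ± 0.36 (SE), with a 95% interval of the ratio of 0.542 to 1.68, and did not pass limma (adjusted p = 0.999). The sign turned without control replicate 1 (0.01) or without Psat1cKO replicate 2 (0.08). No gene of the 218 passed at an adjusted p below 0.05 (0% higher, 0% lower; at an unadjusted p below 0.05, limma gave 1 higher and 0 lower). For both receptors the median log2 change of all tested genes, -0.04, lay inside the interval.

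Around the start, the mark was lower in Psat1cKO for both receptors in both replicates, but both 95% intervals included a ratio of 1. Start-window signal of Pdgfra was 0.946 and 0.948 in the Psat1cKO libraries and 1.06 and 1.09 in the control libraries. The libraries of each genotype lay close together and the groups did not overlap. For Pdgfrb it was 0.326 and 0.235 in Psat1cKO and 0.384 and 0.334 in control, again without overlap. Where in the window the signal was lower differed between replicates. The Psat1cKO to control ratio of Pdgfra at points 11 to 20 was 0.804 in replicate 1 and 0.936 in replicate 2. At points 21 to 30 it was 1.00 and 0.832. For Pdgfrb these ratios were 0.886 and 0.452 at points 11 to 20, and 0.892 and 0.948 at points 21 to 30. Over all tested genes, 11.5% had both Psat1cKO libraries below both control libraries in this window and 28.4% were lower in both replicates. The log2 change was -0.18 ± 0.18 (SE) for Pdgfra and -0.36 ± 0.42 (SE) for Pdgfrb, against a median of 0.05 over all tested genes, and neither passed limma (adjusted p = 0.980 each). The 95% interval of the ratio was 0.655 to 1.19 for Pdgfra and 0.380 to 1.60 for Pdgfrb. No gene passed in this window (0% higher, 0% lower; 1 higher and 1 lower at an unadjusted p below 0.05).

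**Figure D3:**
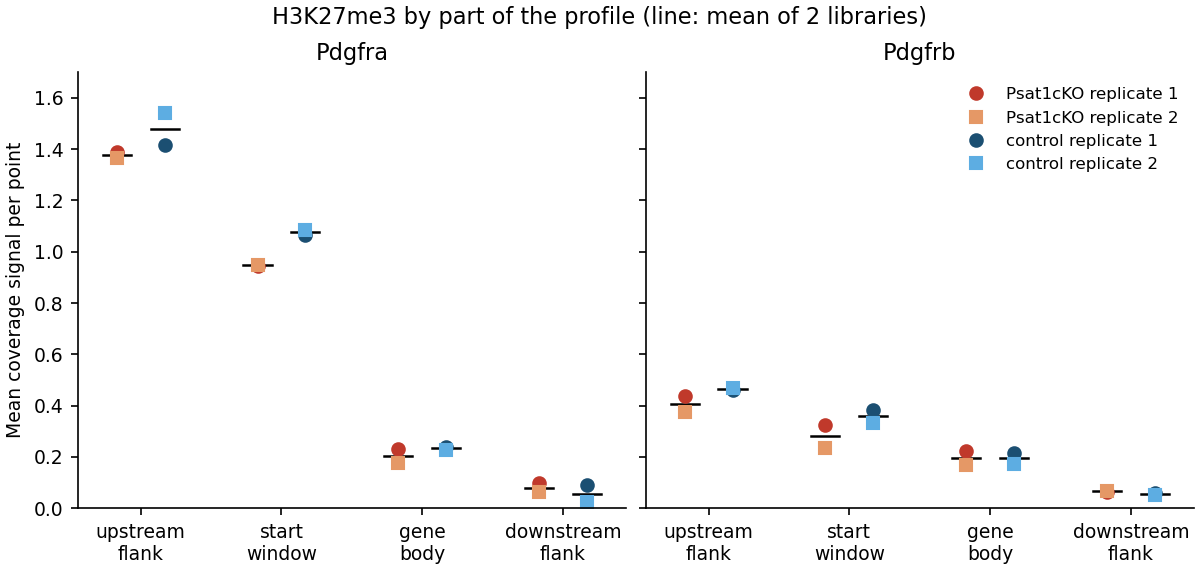
Mean coverage signal per point of Pdgfra (left) and Pdgfrb (right) in 4 parts of the profile, 1 symbol per library, Psat1cKO left of control, with a line at the mean of 2 libraries. In the start window both Psat1cKO libraries lie below both control libraries in each gene, and over the gene body the groups overlap.

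The upstream flank shares points 11 to 20 with the start window, so these windows are not independent. In this flank both Psat1cKO libraries were below both control libraries for each receptor, which held for 15.6% of tested genes. At points 1 to 10, outside the start window, the groups overlapped. Pdgfra had 1.62 and 1.47 there in Psat1cKO and 1.40 and 1.73 in control. For Pdgfrb it was 0.583 and 0.605 in Psat1cKO and 0.592 and 0.615 in control. Over the whole flank the Psat1cKO to control ratio was 0.979 and 0.886 in the replicates for Pdgfra, and 0.950 and 0.801 for Pdgfrb. Over the gene body the groups overlapped in both. The log2 change of the body was -0.20 ± 0.38 (SE) for Pdgfra and -0.00445 ± 0.40 (SE) for Pdgfrb, with 95% intervals of the ratio of 0.476 to 1.60 and 0.526 to 1.89, and neither passed limma (adjusted p = 0.996 each; 0% of 218 genes passed in either direction, with 2 higher and 1 lower at an unadjusted p below 0.05). The body ratio of Pdgfra in replicate 2, 0.773, was lower than in replicate 1, 0.970. In Pdgfra the bin of points 31 to 40, just past the edge, had opposite directions in the replicates: 0.296 and 0.0898 in Psat1cKO against 0.160 and 0.253 in control. In the downstream flank, where coverage was under or about 1 read deep, Pdgfra had 0.0964 and 0.0616 in Psat1cKO and 0.0909 and 0.0230 in control. Pdgfrb had 0.0635 and 0.0671 there in Psat1cKO and 0.0589 and 0.0517 in control, both Psat1cKO libraries being higher, as for 8.72% of tested genes.

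Whether the receptors differed from each other in their change was tested on the log2 ratio of Pdgfra to Pdgfrb within each library, which does not depend on the scaling of a library. It averaged 0.97 ± 0.11 in Psat1cKO and 1.02 ± 0.13 in control (SD, n = 2 each), a difference of -0.05. The two-sided exact permutation test gave p = 0.667, where 0.333 is the smallest p this number of libraries allows.

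**Figure D4:**
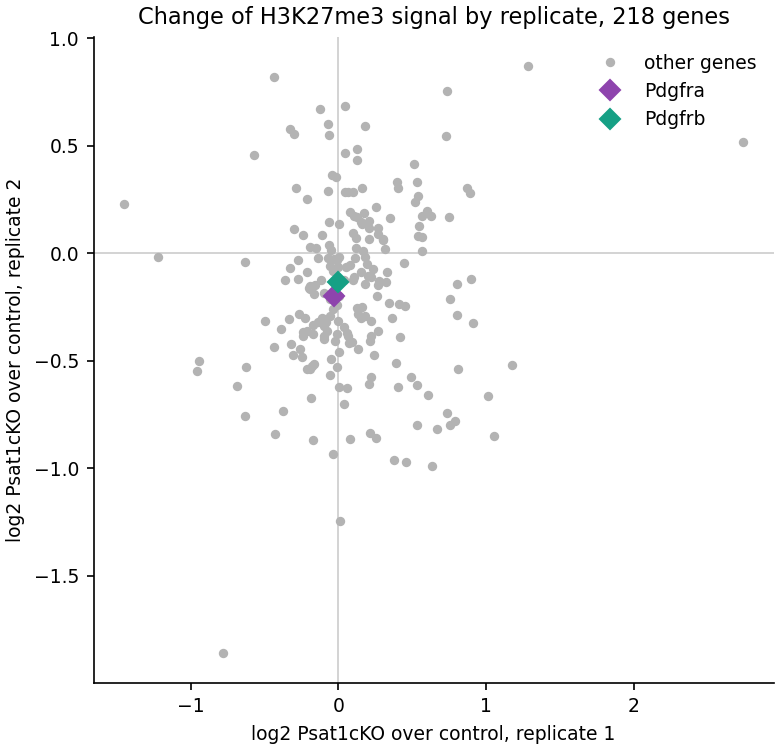
Log2 ratio of Psat1cKO to control in replicate 1 (horizontal) and replicate 2 (vertical) for the 218 genes tested, on log2(sum + 1). Pdgfra (-0.03 and -0.20) and Pdgfrb (0.00046 and -0.13) lie near the centre of the genes.

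Few other genes of the PDGF pathway are in the tables, and 0 of those tested passed limma in either direction. Of 6 genes for ligands and their processing, 2 are present: Pdgfd, a ligand of the receptor that Pdgfrb encodes, had 0.0803 and 0.01005 in Psat1cKO and 0.0494 and 0.0216 in control. Plat, the plasminogen activator that can cleave the ligand PDGF-CC, had 0.0452 and 0.0166 in Psat1cKO and 0.0232 and 0.0345 in control. Both were below either receptor gene in every library. Of 6 related receptor kinases, Flt4, a receptor for vascular endothelial growth factors of lymphatic vessels, is present, with 0.491 and 0.637 in Psat1cKO and 0.476 and 0.520 in control. It had a log2 change of 0.17 ± 0.25 (SE), the opposite sign to Pdgfra and Pdgfrb, but each of these changes was smaller than its SE. Of 15 signal transducers none is in the tables, and of 6 co-receptors and modulators Itgb3, an integrin subunit, had a log2 change of -0.19 ± 0.44 (SE). Of 8 immediate targets 3 are present (Ier3, Ccl2 and Ccl7), all at low signal, and 2 of them were tested, 1 above and 1 below 0.

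Among the genes of the cells in which these receptors are known, 8 of 21 fibro-adipogenic genes are in the tables beside Pdgfra, and 6 were tested, 1 above and 5 below 0, with 0 past limma and a median log2 change of -0.08; of all 218 genes tested, 92 were above and 126 below 0, with a median of -0.04. Their levels spanned those of both receptors. Osr1, a transcription factor of mesenchymal progenitors, had 0.741 and 0.510 in Psat1cKO and 0.837 and 0.666 in control, mostly in the body (0.921 in the mean of 4 libraries, against 0.414 upstream). Twist2, a transcription factor of mesenchymal cells, had 0.386 and 0.287 in Psat1cKO and 0.435 and 0.414 in control, with more upstream (0.716) than in the body (0.329), the same order as in Pdgfra. Twist2 and Osr1 had the lowest log2 changes of the 6, -0.34 ± 0.29 and -0.28 ± 0.24 (SE). The others were -0.08 ± 0.46 for Col1a1, -0.07 ± 0.58 for Col1a2, -0.02 ± 0.37 for Mfap5 and 0.14 ± 0.57 for Timp1 (SE). Signal of Col1a2 and Timp1 was low, at most 0.0535 and 0.0366 in any library. Dcn and Cd34, which code for a matrix proteoglycan and a surface sialomucin, had too little signal to test. Of 14 perivascular genes 3 are present beside Pdgfrb: the proteoglycan gene Cspg4 had 0.0921 and 0.0577 in Psat1cKO and 0.0561 and 0.0501 in control, the adhesion molecule gene Mcam had 0.0544 and 0.0266 in Psat1cKO and 0.0346 and 0.0535 in control, and Tagln was too low to test. All 3 were below Pdgfrb in every library. Of other markers, 2 of 7 for myoblasts (Pax7 and Myf5), 1 of 6 for endothelium (Cdh5) and 0 of 5 for immune cells are present. Pax7, a transcription factor of muscle stem cells and the gene that carries Cre in the Psat1cKO cells, had 0.279 and 0.516 in Psat1cKO and 0.0333 and 0.357 in control, above Pdgfrb in 3 of 4 libraries. Its control libraries differed widely, and its log2 change of 1.63 ± 0.82 (SE) did not pass limma (adjusted p = 0.999). Myf5, another myogenic transcription factor, had 0.0193 and 0.0869 in Psat1cKO and 0.0162 and 0.105 in control, lower in replicate 1 of either genotype. Cdh5, which codes for an adhesion protein of endothelium, had 0.0483 and 0.0610 in Psat1cKO and 0.0301 and 0.0490 in control.

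Genes most like each receptor were picked by level over the 4 libraries and by shape of the averaged profile. The 5 nearest to Pdgfra in level were Tbx18, Crmp1, Ube2ql1, Fam110c and Lrrc32, at Euclidean distances of 0.194 to 0.469 in log2(sum + 1). For Pdgfrb they were Mfap5, Ror2, Svip, Ebf1 and Il11, at 0.138 to 0.526. Mfap5, which codes for a microfibril protein and is on the fibro-adipogenic list, had 0.237 and 0.193 in Psat1cKO and 0.246 and 0.191 in control, nearly the levels of Pdgfrb in each library. In shape, Bdnf, Svip, Peli2, Igf2bp3 and Rbpms were nearest to Pdgfra, with Pearson's r of 0.82 to 0.87 along the points, against a median of 0.25 over 170 genes. Dock5, Klrg2, Nipal1, Svip and Hebp2 were nearest to Pdgfrb, at 0.60 to 0.68, against a median of 0.09. Each of these genes is under the heading UP, as are 220 of all 273 genes.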

How the data were processed

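The deposited values are a coverage signal for each gene and library, in 1 table per replicate with a control and a Psat1cKO block; the table number was taken as the replicate number of the labels. Per the submitters' processing notes, Trimmomatic 0.36, Bowtie, Picard 2.22.2 and mm10 were used; the sources used here state neither their order nor the scaling nor the profiling program. Where the gene lies was inferred: in the 69 shortest genes, neighbouring points were equal in 26.9% of cases at points 22 to 80, against 13.7% at points 1 to 20 and 14.8% from point 82. The sources used here state no flank width in bases. Of the values above 0.01, between 90.9 and 92.4% in each library lay within 0.02 of a whole number of steps.

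Genes with a sum over all points above 2.35, the lower quartile, in at least 2 libraries were tested (218, both receptors included) with limma 3.58.1 in R 4.3.3 with a variance trend, on log2(sum + 1), Psat1cKO against control, Benjamini-Hochberg adjusted over all 218. Sums over the start window and gene body were scaled to the full number of points. These log2 values understate changes of low genes. The rest was done in Python 3.11.15 (pandas 2.3.3, numpy 2.4.6, matplotlib 3.10.9). Alternatives were other pseudocounts, filters, scalings, windows, a replicate block, no trend, the highest point removed and each library left out.

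The receptors, the gene lists and the tests were chosen with earlier results of these data known. Genes named were the receptors, list members in the tables, and the 5 genes nearest to each receptor in level and in shape. The labels do not tell if replicates were separate animals or cultures; p-values then reflect the spread of these samples alone, possibly a technical one. Values scaled to depth would hide a genome-wide shift.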

Additional observations from a re-analysis of the deposited data

How the results depend on the processing

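The log2 change of Pdgfra kept its sign under all alternatives run: -0.19 to -0.04 over the whole profile (13 alternatives), -0.19 to -0.11 in the start window (8) and -0.38 to -0.01 in the body (8). The filters, the replicate block and the fit without a trend cannot alter the log2 change of a gene. Under these its sign could not turn. The log2 change of Pdgfrb in the start window also kept its sign, from -0.59 to -0.13. Over the whole profile Pdgfrb turned to 0.0273 after quantile normalization, and to 0.0148 and 0.0811 without control replicate 1 and without Psat1cKO replicate 2 (range with 1 library left out -0.21 to 0.0811). In the body it turned to 0.0876 with the narrower window, and ranged from -0.20 to 0.19 with 1 library left out. The difference in the Pdgfra to Pdgfrb log2 ratio turned to 0.19 over points 11 to 31 and to 0.0166 with the highest point removed, and ranged from -0.14 to 0.0448 with 1 library left out. No value of either receptor passed limma under any alternative (adjusted p from 0.752). The number of genes past the threshold ranged from 0 to 1 with 1 library left out, the 1 being Pax7 without control replicate 2, and was 0 otherwise. Over the whole profile Pax7 then had a log2 change of 3.17 (adjusted p = 0.00213, limma) and over the body 3.40 (adjusted p = 0.000324, limma), against 1.63 (adjusted p = 0.999, limma) over the whole profile with all libraries. In such a fit the arm with 1 library is assumed to vary like the other genotype, whose spread alone is measured, so the call rests on the single control library in which Pax7 was lowest. With the replicate number as a block the log2 changes were the same by construction, -0.11 for Pdgfra and -0.07 for Pdgfrb. Their SE was 0.0970 and 0.120 with the block, against 0.26 and 0.36 without it. Adjusted p with the block was 0.776 and 0.907 (limma), with 0 genes past the threshold. Samples with the same number deviated together (Pearson's r of 0.76 across 218 genes), but the labels do not say what a number marks. A fit without 1 library also carries the difference between replicates.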

Other observations

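A single point stood out in Pdgfrb. In Psat1cKO replicate 2, point 1, at the far end of the upstream flank, held 2.13, which was 11.2% of that library's Pdgfrb signal, and point 2 held 0.111. In the other libraries point 1 held 0.849 in Psat1cKO replicate 1, and 0.771 and 0.977 in control. With the highest point of every profile removed, the log2 change of Pdgfrb over the whole profile was -0.13 in place of -0.07, and that of Pdgfra was -0.11 in both cases. In Pdgfra the highest point held 5.004 to 5.60% of the signal in the 4 libraries, at point 24 in replicate 1 of each genotype, and at points 8 (Psat1cKO) and 5 (control) in replicate 2.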
